A study of Mus musculus with 6 samples.

Results

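Genes for the subunits of the mitochondrial respiratory chain and the ATP synthase were compared in double-negative thymocytes between 3 RAG1-deficient samples and 3 RAG1/Ezh2 double mutant samples, 1 array each. The members were chosen by gene symbol alone: every probe set that the platform's annotation gives to exactly 1 gene whose symbol begins with Nduf, Uqcr, Atp5, Cox4, Cox5, Cox6, Cox7 or Cox8, or is Sdha, Sdhb, Sdhc, Sdhd, Cyc1 or Cycs. This took 101 probe sets of 73 genes out of 12422 probe sets that are not controls, which read 8251 genes by a probe set of their own. A further 10 probe sets name such a gene together with another gene and stayed out. All 6 samples carry the RAG1 defect, and the double mutant also carries a mutation of Ezh2, the histone methyltransferase of Polycomb repressive complex 2. The labels name neither the alleles, the promoter or cell type of any deletion, the strain, the age nor the sex, and RAG1-deficient arrays 1 and 3 have titles that end in WT. Separate animals are not stated for the arrays of a group. The p-values therefore measure the spread among these arrays alone, and that spread may be technical.

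The respiratory chain passes electrons from NADH and succinate to oxygen through 4 complexes of the inner mitochondrial membrane and pumps protons as it does so. Complex I accepts electrons from NADH and complex II from succinate, complex III hands them to the small carrier cytochrome c, and complex IV (cytochrome c oxidase) gives them to oxygen. Complex V, the ATP synthase, uses the proton gradient to make ATP. The nuclear genes of these subunits are active in nearly all tissues, and a few complex IV subunits have separate isoforms for muscle or testis. Double-negative thymocytes are immature T cell precursors without CD4 or CD8.

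Values are scaled Affymetrix intensities, which cannot be set against each other between probe sets. Differences are log2(intensity + 23), double mutant minus RAG1-deficient. A probe set was tested if its intensity passed 86.5 on at least 3 arrays, whichever they were. The sample titles come in 3 wordings, called numbered, Rag and Thy here, each with 1 array per group. They number the arrays 1, 2 and 3 within a group and form the pairs of a second model, the paired fit, beside a model with group alone, the unpaired fit. Both are limma fits over all 7642 tested probe sets, with Benjamini-Hochberg adjustment over all of them and a threshold of 0.05. The targeted gene Ezh2 was lower in each pair (1435, 1641 and 1790 against 292, 651 and 724; log2 difference -1.60 ± 0.20, SE of the paired fit) and passed in the paired limma fit only (adjusted p = 0.0261, against 0.332 unpaired). The 10 markers of the T lineage and double-negative stage found on the array were all bright enough to test. RAG1-deficient array 1 stood apart in the CD8 genes, with Cd8a at 2973 and Cd8b1 at 8426, where no other array passed 81.3 for the former or 164 for the latter. The summed intensity of 6 NK and innate lymphoid markers was 3800 to 5871 in the RAG1-deficient and 9073 to 11462 in the double mutant arrays, whereas the sums of all other marker lists overlapped between the groups. The separation rested on Gzma, the granzyme A gene, at 2796, 2163 and 1244 against 8096, 7946 and 4982. Without it the other 5 markers summed to 3075, 3171 and 2556 against 3366, 2429 and 4090, which overlap, and Klrd1 had a log2 difference of -0.32. Single markers of other lists also had groups without overlap, as did 7.13% of all tested probe sets, although their list sums overlapped. Ptcra, Rag1 and Itgax were lower in the double mutant (log2 differences -0.657, -0.439 and -0.355). They did not pass in the paired limma fit (adjusted p = 0.0827, 0.143 and 0.414). The stroma marker Pdgfrb was higher (1.225) and passed in that fit only (adjusted p = 0.0436, against 0.332 unpaired).

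Most respiratory chain transcripts lay close to equal in both groups, and 1 gene, Cox6b2, was called higher in the double mutant, by the paired fit only. Over all settings run, each of its 2 called probe sets passed in 3 of 8 paired fits and 0 of 13 unpaired fits. Cox6b2 encodes the testis isoform of the complex IV subunit VIb. Of the 80 member probe sets that could be tested (66 genes), 46 lay above and 34 below 0, a median log2 difference of 0.015, beside -0.002 for all tested probe sets. The split went with intensity. Of the 52 members in the upper 25% of mean intensity, 37 lay above and 15 below 0 (71.2% above, beside 51.4% of all tested probe sets there). The medians were 0.061 and 0.006. Of the 28 dimmer members, 9 lay above and 19 below 0 (median -0.05). With 1 probe set per gene, 43 of 66 lay above 0 (65.2%, beside 49.6% of all tested probe sets). In the unpaired limma fit 0 members passed in either direction, against 0.0393% of all tested probe sets higher and 0.0% lower. Before adjustment, 3 members (3.75%) were higher and 0 lower there with p under 0.05, beside 2.29% and 0.903% of all tested probe sets. In the paired fit 2 members rose and 0 fell, both of them probe sets of Cox6b2, where 0.563% of all tested probe sets rose and 0.105% fell. Before adjustment, 5 (6.25%) were higher and 2 (2.5%) lower with p under 0.05 in this fit, shares below the 7.73% and 5.4% of all tested probe sets. Only 1 of the 80, a probe set of Atp5g2, had groups that did not overlap, higher in the double mutant. Of all tested probe sets 4.21% were without overlap and higher and 2.92% without overlap and lower, 7.13% together. In such bulk RNA, fewer cells of a type and less RNA per cell cannot be told apart.

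**Figure D1:**
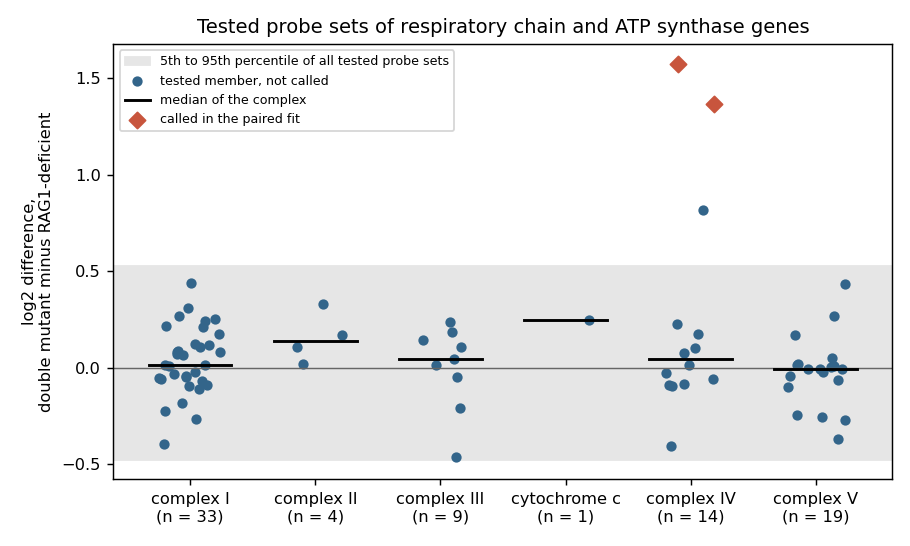
Log2 differences (vertical axis, double mutant minus RAG1-deficient) of the 80 tested member probe sets by complex. Points are probe sets, black lines are the medians, diamonds passed in the paired fit, and the grey band spans the 5th to 95th percentile of all tested probe sets (-0.48 to 0.53). The 3 probe sets of Cox6b2 in complex IV lie above the band and the other 77 inside it.

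The promoters of Cox6b2 and of its ubiquitous counterpart Cox6b1 are shown because the isoforms of this subunit gave unlike differences, and that of Atp5g2 because it was the only member without overlap. Each window runs from 250 bases before to 50 bases after the annotated start, 5′ to 3′ on the gene's strand (RefSeq, build GRCm38.p6). Capitals mark CG dinucleotides for the first and second gene. For Atp5g2 they mark a match to the palindromic motif of NRF1, a transcription factor known for binding respiratory gene promoters.
Cox6b2, chr7:4753045-4753344, minus strand: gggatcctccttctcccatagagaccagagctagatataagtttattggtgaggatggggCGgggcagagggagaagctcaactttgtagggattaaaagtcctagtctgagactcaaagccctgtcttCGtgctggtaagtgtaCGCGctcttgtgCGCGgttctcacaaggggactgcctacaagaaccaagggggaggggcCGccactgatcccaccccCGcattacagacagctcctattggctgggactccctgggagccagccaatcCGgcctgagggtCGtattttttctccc
Cox6b1, chr7:30626065-30626364, minus strand: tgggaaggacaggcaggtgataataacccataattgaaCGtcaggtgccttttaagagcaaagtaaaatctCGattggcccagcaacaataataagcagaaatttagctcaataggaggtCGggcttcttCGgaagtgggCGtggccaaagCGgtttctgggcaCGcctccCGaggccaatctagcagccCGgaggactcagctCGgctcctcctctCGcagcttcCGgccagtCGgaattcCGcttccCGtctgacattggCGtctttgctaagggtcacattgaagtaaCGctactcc
Atp5g2, chr15:102670998-102671297, minus strand: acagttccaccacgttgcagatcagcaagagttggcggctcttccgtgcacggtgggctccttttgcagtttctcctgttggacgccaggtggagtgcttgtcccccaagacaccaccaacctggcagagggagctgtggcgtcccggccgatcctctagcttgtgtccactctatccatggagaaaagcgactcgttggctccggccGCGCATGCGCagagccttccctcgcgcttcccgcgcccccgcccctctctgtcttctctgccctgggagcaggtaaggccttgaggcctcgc

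The Cox6b2 window holds 10 CG dinucleotides and that of Cox6b1 17, beside a median of 19 over the 64 windows found for 59 of the 73 member genes and of 7 over all 32851 windows of the table. Only 5 member windows, that of Cox6b2 included, hold 10 or fewer. The NRF1 motif, with any base allowed at the 6th of its 10 letters and searched on both strands, stands in 13 of the 64 member windows (20.3%) and in 4.60% of all windows. The ETS factor motif CCGGAAGT stands in 4 member windows (6.25%) and in 3.89% of all. CCAAT stands in 26 member windows (40.6%) and in 37.4% of all. No motif of the 3 contains another, and the matches are a description of the sequence only. The NRF1 and ETS motifs themselves hold CG dinucleotides, of which member windows have more than all windows (medians of 19 and 7). The shares are not matched for that. The windows of Cox6b2 and Cox6b1 hold neither of the first and second motif and 3 matches each to CCAAT.

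Cox6b2 is read by 3 probe sets. On the _i_at probe set its intensity was 104, 355 and 662 on RAG1-deficient arrays 1, 2 and 3 and 540, 895 and 1667 on the double mutant arrays. On the _f_at probe set it was 439, 1544 and 864 against 1534, 2869 and 2425. Each double mutant array lay above its RAG1-deficient partner on both, but the groups overlapped, since the lowest double mutant value lay under the highest RAG1-deficient value. The log2 difference was 1.58 ± 0.20 (SE of the paired fit) and 1.37 ± 0.18 (SE of the paired fit), with an adjusted p of 0.0261 for each in the paired limma fit and 0.9999 in the unpaired. By pair it was 2.15, 1.28 and 1.30 on the former and 1.75, 0.88 and 1.46 on the latter, in the order numbered, Rag and Thy. As ratios of geometric means without the added constant these are 3.20-fold and 2.63-fold. Both probe sets were made from the same sequence record and are not independent readings, and an _f_at probe set may also pick up transcripts of related sequence.

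The third probe set of Cox6b2, of the _r_at type, was dim and did not pass. Its intensities were 12.0, 42.5 and 138 against 126, 93.1 and 94.0. It lay higher in the double mutant in the numbered and Rag pairs and lower in the Thy pair (-0.46), with a log2 difference of 0.82 ± 0.48 (SE of the paired fit, adjusted p = 0.529 in limma). The lowest RAG1-deficient value on all 3 probe sets was that of array 1, the array with CD8 transcripts. Without that pair the paired log2 differences of the brighter probe sets were 1.29 and 1.17, with adjusted p of 0.0839 and 0.169 in limma. Without array 1 alone the unpaired differences were 0.91 and 0.92. Without the Thy pair the adjusted p was 0.125 for both. Gzma also lay higher in the double mutant, without overlap, while the sum of the other NK markers overlapped. Within each group the array with the lowest Gzma, array 3, had the highest _i_at value of Cox6b2. On the _f_at probe set array 2 was the highest in both groups, so the 2 called probe sets ordered the arrays differently. The part of Gzma-expressing cells in the result was not tested.

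Among the genes next to Cox6b2, looked at after its values were seen, none that could be tested passed in either fit. Of 16 protein-coding neighbours, 8 on each side, 5 had a probe set. The adjacent histone methyltransferase gene Kmt5c stood at 857, 553 and 583 in RAG1-deficient and 798, 599 and 597 in double mutant arrays, a log2 difference of 0.01 ± 0.13 (SE of the paired fit). The ubiquitin-conjugating enzyme gene Ube2s, 6 genes away, had 0.38 ± 0.15 (SE of the paired fit) without overlap and did not pass (paired adjusted p = 0.343 in limma). The chaperone cofactor gene Hspbp1 had 0.05, and the probe sets of Syt5 and Il11 were too dim to test.

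**Figure D2:**
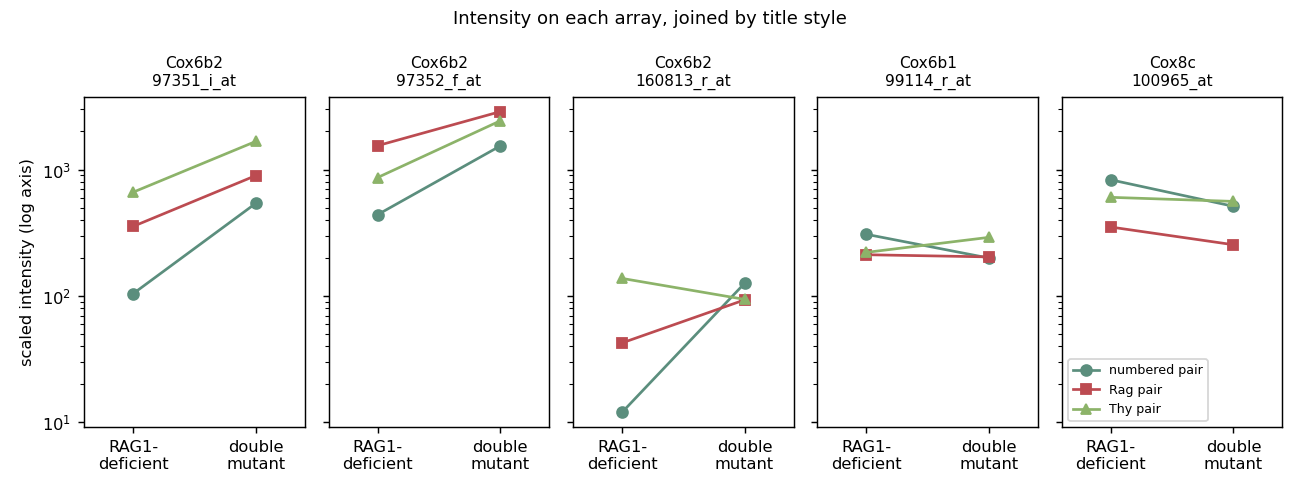
Scaled intensity (vertical log axis) of the 3 probe sets of Cox6b2, of Cox6b1 and of Cox8c on each array, with lines joining the arrays of 1 title style. The first and second Cox6b2 probe sets rise in all 3 pairs, the third in 2 of 3, and Cox6b1 is lower in 2 of 3 pairs and Cox8c in all 3.

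The other complex IV members did not pass. Cox6b1, the ubiquitous form of the same subunit, was read only by an _r_at probe set. It stood at 307, 212 and 221 in RAG1-deficient and 199, 204 and 291 in double mutant arrays (log2 difference -0.09 ± 0.22, SE of the paired fit). Its groups overlapped and its pairs went both ways. Cox8c, another isoform known from testis, lay lower in each pair, at 829, 351 and 603 against 512, 254 and 560, with a log2 difference of -0.40 ± 0.16 (SE of the paired fit) that did not pass (paired adjusted p = 0.366 in limma). The nuclear subunit gene Cox4i1 was read by 2 probe sets with log2 differences of -0.02 and -0.06. The _f_at probe set of Cox4i1 stood at 444, 375 and 330 against 270, 532 and 360.

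Forms of other complex IV subunits also did not pass. Cox6a1, the ubiquitous form of subunit VIa, stood at 6104, 11612 and 7637 against 7190, 10741 and 7222, a log2 difference of 0.01 ± 0.11 (SE of the paired fit). Cox7a2, the form of subunit VIIa made outside heart and muscle, stood at 5714, 6678 and 4670 against 5433, 7313 and 5576. Its relative Cox7a2l, known for joining complexes III and IV into supercomplexes, stood at 4116, 5290 and 3750 against 3997, 4837 and 3569. Their log2 differences were 0.10 and -0.08. The groups overlapped for all 3 genes. Cox6c, on another _f_at probe set, stood at 5582, 12996 and 9405 against 9420, 11568 and 10107 (log2 difference 0.23). Cox7b was higher in each pair with overlapping groups, at 3275, 3232 and 2470 against 3688, 3735 and 2752, with a log2 difference of 0.18 ± 0.10 (SE of the paired fit).

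The muscle isoforms were dim. Cox6a2, the heart and muscle form of subunit VIa, stood at 43.5, 68.4 and 203 in RAG1-deficient and 35.1, 49.3 and 45.9 in double mutant arrays, and Cox7a1 stood between 27.1 and 67.0 on all arrays. Neither could be tested. Cox6a2 was high on RAG1-deficient array 3 alone, where the summed intensity of 12 skeletal muscle markers was 651, inside the range of 476 to 996 of the RAG1-deficient arrays. Cox8b, the heart and muscle form of subunit VIII, was tested on 1 of 2 probe sets, at 538, 258 and 322 against 478, 220 and 342. The ubiquitous form Cox8a was at most 52.5 on any array and was not tested. No probe set of Cox4i2, Atp5g3 or Ndufa4 was analysed here.

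Complex I, the entry point for NADH, was read by 33 tested probe sets of 29 genes, assembly factors among them. Their median log2 difference was 0.017, with 19 above and 14 below 0, and 0 passed in either fit. The differences lay between -0.39 and 0.44. Ndufab1, the mitochondrial acyl carrier protein, stood at 2257, 4243 and 2437 in RAG1-deficient and 4008, 4966 and 2954 in double mutant arrays. It was higher in all 3 pairs with overlapping groups, with a log2 difference of 0.44 ± 0.14 (SE of the paired fit), and did not pass (paired adjusted p = 0.265 in limma). Ndufs1, the large iron-sulfur subunit, stood at 856, 847 and 1260 against 1152, 1020 and 1515, and Ndufb8, an accessory membrane subunit, at 2248, 3060 and 2381 against 2402, 4166 and 2868. Their log2 differences were 0.31 ± 0.12 and 0.27 ± 0.12 (SE of the paired fit). Ndufa1, a small membrane subunit encoded on the X chromosome, was dim and lower in each pair, at 236, 132 and 160 against 183, 111 and 94.7.

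The core subunits of complex I named here lay on both sides of 0. Ndufs1, given above, had a log2 difference of 0.31 and Ndufv1, which holds the NADH-binding site, 0.21. The partner of Ndufv1, Ndufv2, had 0.01 on a bright and -0.18 on a dim probe set, and the core subunit Ndufs3 had -0.09. The assembly factors Ndufaf1 and Ndufaf4 had -0.04 and 0.24, and a second probe set of Ndufaf1 had -0.27.

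Complex II, the succinate dehydrogenase that also belongs to the citric acid cycle, was covered in full. All 4 genes lay above 0, with a median log2 difference of 0.14, and 0 passed. Sdha, the flavoprotein subunit, stood at 425, 408 and 515 in RAG1-deficient and 512, 429 and 587 in double mutant arrays (0.17). The iron-sulfur subunit gene Sdhb stood at 3191, 2594 and 2467 against 3221, 3089 and 2580 (0.11). The membrane anchors were Sdhc, at 2258, 2608 and 1907 against 2398, 2813 and 3343 (0.33), and Sdhd, at 2196, 3146 and 3453 against 2372, 3933 and 2682 (0.02). In the Thy pair Sdhd was lower, and the difference of Sdhc was at its highest (0.80). The groups overlapped for all 4.

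Complex III had members on both sides of 0. Of 9 tested complex III probe sets, 6 lay above and 3 below 0, with a median of 0.046, and 0 passed. The core protein genes Uqcrc1 and Uqcrc2 had log2 differences of 0.18 and -0.21 in opposite directions, with Uqcrc1 at 3231, 4037 and 2806 against 3243, 4565 and 3639 and Uqcrc2 at 2910, 5374 and 4724 against 2784, 4499 and 3813. The small subunits Uqcrb and Uqcr10 had 0.24 and 0.14. Uqcrb stood at 2679, 4625 and 2682 against 3367, 5173 and 3124, and Uqcr10 at 6162, 5076 and 3157 against 6139, 5551 and 3903. Cyc1, the cytochrome c1 subunit, was read by an _at probe set at 8317, 10921 and 8570 against 8208, 11227 and 9295 (0.05), and by an _r_at probe set at 1916, 1324 and 3347 against 1487, 1252 and 1733 (-0.46). The latter was high on RAG1-deficient array 3 and lower in each pair, so the 2 readings of Cyc1 disagreed, and neither passed. Cycs, cytochrome c itself, stood at 203, 385 and 284 against 215, 411 and 439, a log2 difference of 0.25 ± 0.18 (SE of the paired fit).

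Complex V had 19 tested probe sets of 13 genes, 8 above and 11 below 0, with a median log2 difference of -0.004, and 0 passed. Atp5g2, 1 of the genes for the c subunit of the rotor ring, stood at 1289, 1266 and 1258 in RAG1-deficient and 1723, 1849 and 1622 in double mutant arrays. All 3 double mutant values lay above all 3 RAG1-deficient values. The log2 difference was 0.44 ± 0.12 (SE of the paired fit), and the call was not made in either limma fit (adjusted p = 0.188 paired and 0.9999 unpaired). This is an _f_at probe set, and a second, untested probe set of Atp5g2 gave 43.4, 12.8 and 52.1 against 61.3, 8.3 and 18.9. Atp5g1, which encodes an identical mature protein, stood at 155, 95.1 and 158 against 124, 65.5 and 149.

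Other subunits of complex V did not pass. The alpha subunit gene Atp5a1, which carries the catalytic sites together with the beta subunit, had a log2 difference of 0.01, the central stalk gene Atp5c1 0.05 and -0.003 on 2 probe sets, and the peripheral stalk genes Atp5o and Atp5j 0.02 and 0.01. Atp5pb, the b subunit of the peripheral stalk, was dim, at 201, 168 and 156 against 159, 76.0 and 176 (-0.37). The e subunit gene Atp5k stood at 222, 300 and 81.0 against 267, 347 and 111 (0.27), higher in each pair while its groups overlapped. Atp5d, the delta subunit, had 5 tested probe sets with log2 differences between -0.27 and 0.17.

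**Figure D3:**
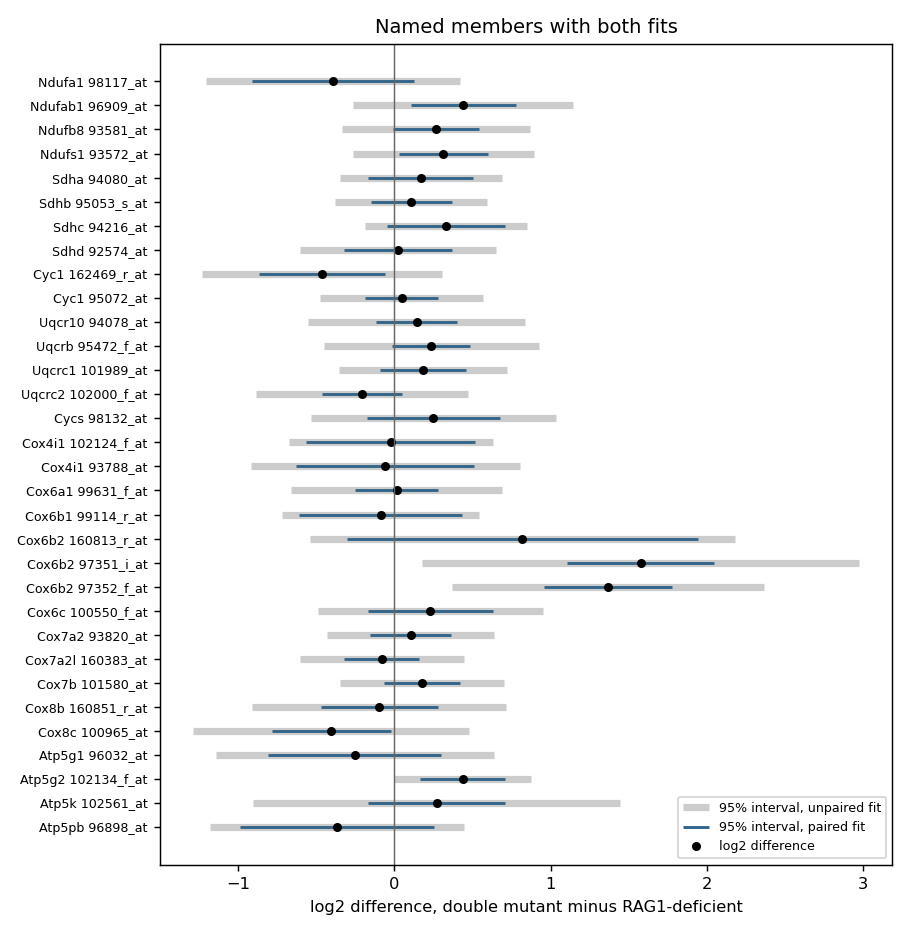
Log2 differences (horizontal axis) of the 32 named and tested member probe sets with 95% intervals of the unpaired fit (grey) and of the paired fit (blue). Points are the differences. The intervals of the paired fit are shorter, and those of the _i_at and _f_at probe sets of Cox6b2 lie farthest from 0.

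The precision differed between the fits. The 95% interval of the paired fit lay within 1.5-fold either way for 53 of the 80 tested members (66.2%), beside 46.0% of all tested probe sets, and within 2-fold for 77 (96.2%, beside 85.8%). The 3 outside 2-fold were the probe sets of Cox6b2. These shares also went with intensity. Of the 52 members in the upper 25% of mean intensity, 86.5% lay within 1.5-fold and 98.1% within 2-fold. All tested probe sets there had 74.8% and 95.7%. Of the 28 dimmer members, 28.6% lay within 1.5-fold. In the unpaired fit 8 members lay within 1.5-fold and 62 within 2-fold, so smaller differences were not detectable there. The median SE over the members was 0.12 in the paired and 0.28 in the unpaired fit. Of 10 genes with several tested probe sets, 4 had readings of opposite sign. The remaining 21 member probe sets, with intensities of 1.0 to 203, did not pass the filter, and 7 genes (Atp5j2, Cox5a, Cox6a2, Cox7a1, Cox8a, Ndufa12 and Ndufc2) had no tested probe set.

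Respiratory chain transcripts varied between title styles, as did all tested probe sets. Over the 80 tested members, the median range between the 3 styles was 0.65 on the log2 scale, and the median size of the group difference was 0.10. The corresponding medians of all tested probe sets were 0.62 and 0.17. A range over 3 style means tends to exceed a difference of 2 group means, so these sizes cannot be ranked against each other. The Rag arrays were the highest style for 48 of 80 members (60.0%), beside 29.7% of all tested probe sets and 47.2% of those in the upper 25% of mean intensity, to which 52 of the 80 members belong. Ndufc1, a small membrane subunit of complex I, shows the pattern: it stood at 1362, 3991 and 2354 in RAG1-deficient and 1657, 4185 and 2398 in double mutant arrays. The epsilon subunit gene Atp5e of complex V stood at 1876, 4417 and 2151 against 1939, 3908 and 2252. In both genes the Rag arrays were highest in each group, and the arrays of a style lay side by side.

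This style difference ran through complexes I, III, IV and V. The median log2 difference of the Rag arrays from the mean of the other styles was 0.36 in complex I, 0.41 in complex III, 0.28 in complex IV and 0.285 in complex V, but 0.08 in complex II and -0.12 over all tested probe sets. It went with intensity: it was 0.14 over all tested probe sets in the upper 25% of mean intensity, 0.42 over the 52 members there and -0.14 over the 28 members below. The mitochondrial ribosomal protein genes had 0.34, with the Rag arrays highest for 48 of 67 tested probe sets. Deviations from the group means, taken across the member probe sets, had correlations within a style of 0.68 (numbered), 0.86 (Rag) and 0.69 (Thy), as a description over 80 probe sets that share their arrays. The labels give no batch, and the Rag titles do not name the double-negative stage. The 3′ to 5′ ratio of the Gapdh control probe sets was 1.14 and 1.35 on the Rag arrays and 0.836 to 1.04 on the other 4. That of actin was 2.77 and 2.26 on the Rag arrays and 1.24 to 1.99 elsewhere. The transferrin receptor ratio was 9.33 on double mutant array 2, a Rag array, and 3.59 to 5.21 elsewhere. On the Rag arrays 55.2% and 55.3% of probe sets passed the filter level, against 61.5% to 64.3% elsewhere. The summed erythroid and platelet markers were 792 and 1279 on the Thy arrays and 16877 to 30974 elsewhere. Their part in the style difference was not tested. The groups overlapped in the Gapdh, actin and transferrin receptor ratios and in the share passing the filter level. The exact two-sided permutation p was 0.6, 0.9, 0.9 and 1.0 in that order, where 3 against 3 arrays allow no less than 0.1.

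**Figure D4:**
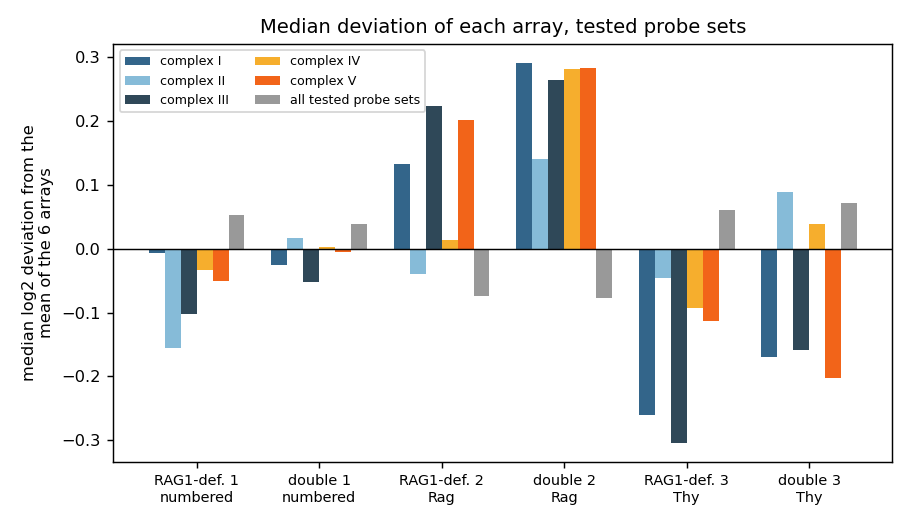
Median log2 deviation of each array from the mean of the 6 arrays (vertical axis), for the tested probe sets of each complex and for all tested probe sets (grey). Complexes I, III and V are above 0 on the Rag arrays and below 0 on the Thy arrays in both groups. All tested probe sets go the other way, but those in the upper 25% of mean intensity, not drawn, go the same way as the complexes (0.10 and 0.07 on the Rag arrays, -0.04 on both Thy arrays).

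Leaving out 1 array moved the median of the members to both sides of 0. It was 0.16 without RAG1-deficient array 2, and -0.05 without double mutant array 2, both of them Rag arrays. Within the pairs the median was 0.05 (numbered), 0.04 (Rag) and 0.05 (Thy). Of the 80 members, 24 lay above 0 in all 3 pairs and 9 below 0 in all 3, beside 1439 and 1305 of the 7642 tested probe sets.

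Other mitochondrial genes, in 7 lists drawn up by function, had 20, 11, 67, 18, 34, 11 and 9 tested probe sets. They gave 1 call, a share near the 0.563% of all tested probe sets called higher in the paired fit. The call was Mtx2. Its probe set stood at 319, 283 and 233 in RAG1-deficient and 826, 1047 and 1045 in double mutant arrays, without overlap. Mtx2, metaxin 2 of the outer membrane import machinery, rose by a log2 difference of 1.73 ± 0.18 (SE of the paired fit), and its adjusted p was 0.0192 by the paired limma fit and 0.0577 by the unpaired. It was the only 1 of 34 tested probe sets of the import, carrier and channel list to pass, and that list had a median of 0.09. Immt, which organises the cristae, had -0.50 in it on an _r_at probe set and did not pass. A second, untested probe set of Immt had 0.36.

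In the other 6 lists 0 probe sets passed in either fit. The citric acid cycle and pyruvate list had 12 of 20 tested probe sets above 0 (median 0.09), with Sucla2 at -0.19. Dlat, the E2 subunit of pyruvate dehydrogenase, had 0.86 in it on a dim probe set (25.4, 51.8 and 141 against 191, 64.2 and 167). A second tested probe set of Dlat had 0.34. The assembly factors outside the symbol rule had 5 of 11 above 0 (median -0.02), with Acad9 at -0.37 and Surf1 at -0.25. Mitochondrial ribosomal proteins had 42 of 67 above 0 (median 0.05), with Mrps22 at 0.56 and Mrps11 at 0.46. The list of mitochondrial DNA and biogenesis regulators had 14 of 18 above 0 (median 0.17), with the nuclear receptor Esrra at -0.58 and Yy1 at 0.34. Other donors to ubiquinone had 7 of 11 above 0 (median 0.05). Coq7 and Etfa in this list, at 0.50 and 0.39, had groups without overlap (18.2% of the list, beside 7.13% of all tested probe sets). That share was 5.56% in the regulator list, 2.94% in the import, carrier and channel list and 0.0% in the rest. Oxygen radical defence had 2 of 9 above 0 (median -0.17), with Prdx3 at -0.34 and Sod2 at -0.28.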

How the data were processed

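Per the labels, total RNA of double-negative thymocytes was measured on 6 single-colour arrays, grouped by their descriptions. The deposited table gives 1 linear intensity per probe set. Its software is not given in the sources used here. The values show a 2%-trimmed mean of 500.29 to 500.37 on each array, so they had been scaled alike, and a shift common to most transcripts could not be seen. The 66 control probe sets were left out. Gene names came from the platform annotation, and a RefSeq table of assembly GRCm38.p6 changed 0 member symbols.

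Over all values, the 20th percentile, rounded, gave the added constant of 23, and the 40th gave the filter of 86.5. Both fits used limma 3.58.1 in R 4.3.3 (lmFit, eBayes with trend), two-sided. They were also run on data simulated with the style effects and spread of these same arrays. That run cannot show whether pairing by title style is justified. Exact permutation tests used scipy 1.17.1, and figures matplotlib 3.10.9 in Python 3.11.15.

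The paired fit takes title wording as a block. Across all tested probe sets, deviations from the group means correlated at 0.57, 0.74 and 0.60 between the arrays of a style, above the limit of 0.1 for pairing. No label states a shared batch, litter or day.

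Members named with values are those called in either fit, the 4 smallest unpaired p per complex (1 probe set per gene), complex II, Cyc1, Cycs and the isoform pairs. Others named (Ndufv1, Ndufv2, Ndufs3, Ndufaf1, Ndufaf4, Ndufc1, Atp5a1, Atp5c1, Atp5o, Atp5j, Atp5e and Atp5d) were chosen after their values were seen. From each pathway list the calls and the 2 smallest p are named. The members and lists were chosen with earlier results of these data known. Alternatives were another scaling, constant, filter and moderation, and leaving out arrays or pairs.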

Additional observations from a re-analysis of the deposited data

How the results depend on the processing

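With the replicate block (the paired fit), 2 member probe sets passed, both of Cox6b2 (1.576 and 1.367), and Ezh2 passed at -1.599. The member count was again 2 when the Rag pair was left out of the paired fit (Cox6b2 at 1.724 and 1.608, Ezh2 at -1.746) and with a constant of 100 (1.33 and 1.28, Ezh2 at -1.461). It was 0 in the paired fit with quantile scaling (adjusted p of Cox6b2 0.0677 and 0.0569), without the filter (0.0716 for both), without the trend (0.103 and 0.123), without the numbered pair, and with the Thy pair left out. In these 5 settings Ezh2 did not pass either (adjusted p 0.0507, 0.0716, 0.109, 0.0796 and 0.111). The member count was 0 in every unpaired fit run. The settings without the filter, with a constant of 100 and without the trend in the paired fit were chosen after seeing the data. Over all tested probe sets, 3 were called unpaired, 5 with quantile scaling, 1 with the filter on all 6 arrays and 0 to 6 with 1 array left out. Paired counts were 51, 14 without the numbered pair, 191 without the Rag pair, 3 without the Thy pair, 23 with quantile scaling, 5 without the filter, 55 with a constant of 100 and 9 without the trend. The median of the tested members, 0.015, became 0.025 with quantile scaling in both fits, 0.006 without the filter in both fits, 0.02 with the filter on all arrays and 0.034 with 1 probe set per gene. It was 0.036, 0.028 and 0.032 in the paired fit without the numbered, Rag and Thy pair, and -0.048 to 0.162 with 1 array left out. Without RAG1-deficient replicate 1, Cox6b2 was 0.91 and 0.917 unpaired. Of the 32 named and tested member probe sets, 19 kept their sign under all alternatives run. For the calls that ended, the cause was not tested. The number of arrays limits the precision, and dim probe sets have the widest errors.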
